A study of Mus musculus with 6 samples.

Results

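Autosomal stretches of 1 Mb in which no H3S10p peak was called are described here, in mouse embryonic stem cells. H3S10p is histone H3 phosphorylated at serine 10, and chromatin immunoprecipitation followed by sequencing (ChIP-seq) was used to find where it is enriched. Chromosomes 1 to 19 of the mouse build mm9 were cut into fixed 1 Mb windows, from 3 Mb to the last full window before the last base called in either of 2 peak lists. A window was kept when no peak midpoint of either list fell in it. This left 296 of 2403 windows (12.3%), which are called empty below. The windows were thus chosen by the peak positions themselves, and that they hold no midpoint is a description and not a finding. A peak midpoint is the middle base of a called peak, and a run is a set of empty windows that adjoin each other.

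The study holds 6 samples, all embryonic stem cells of strain 129P2/Ola. The 2 ChIP libraries used here came from cells exposed to aphidicolin for 20 hours and freed of it for 3 hours. Aphidicolin blocks the polymerases that copy DNA and so holds cells at the entry to and within S phase. Both ChIP libraries carry the same labels, antibody ab14955 included, so no conditions were compared. The 4 RNA libraries, 2 wild-type and 2 treated for 48 hours with ZM-447439, which inhibits Aurora kinases, carry no genome positions and were not used here. Nothing in the labels says whether the ChIP libraries came from separate cultures, so a difference between them may be technical. The stem cell identity of the samples could not be checked against markers in peak lists.

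In dividing cells the Aurora B kinase phosphorylates serine 10 of histone H3, first at pericentric heterochromatin in G2 and then along the condensing chromosomes. In interphase the mark is found at far fewer places, among them genes that are being induced, where other kinases such as MSK1 place it. A peak caller such as MACS, which the authors used, reports places where reads pile up above their surroundings. A window without a peak is thus a window in which nothing passed the caller's threshold. Weaker pile-ups may lie in it, and whether a broad layer of the mark would have been called depends on settings not given in the sources used here.

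Library 1 held 11067 peaks, of which 10853 had their midpoint in an autosomal window, and library 2 held 12261, of which 12046 did. The mean window held 4.52 midpoints in library 1 and 5.01 in library 2, and the median was 3 in each. Library 1 alone had no midpoint in 501 windows (20.8%, 95% Wilson interval 19.3 to 22.5%), and library 2 alone had none in 444 (18.5%, 17.0 to 20.1%). For both together the interval around 12.3% was 11.1 to 13.7%. These intervals cover counting error, and neighbouring windows are not independent. The read depth behind the lists is unknown and no input library was analysed here, so whether an empty window lacks H3S10p or lacks reads was not tested. Which genes and bases lie in the windows was not analysed here.

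The windows just inside the rule held 0 midpoints, and those just outside held 1 in all. There were 261 of the latter (10.9% of windows), nearly as many as empty ones, and 204 windows held 2 midpoints. The single peaks that kept the 261 windows out came from library 1 in 111 cases and from library 2 in 150. Their median width was 255 bp and their median score 68.9, where the score is the strength value listed by the authors' peak caller. Autosomal peaks called in 1 library alone had medians of 258 bp and 66.2. None of the 261 single peaks overlapped a peak of the other list, which the rule nearly forces. In the 146 windows that held 1 midpoint in each library, the peaks overlapped in 63 (43.2%, 35.4 to 51.3%).

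Empty windows were found on every autosome, at shares from 5% to 20.5%. Chromosome 12 had the highest share (24 of 117 windows, 20.5%, 14.2 to 28.7%), followed by chromosome 14 (25 of 122, 20.5%, 14.3 to 28.5%) and chromosome 8 (26 of 127, 20.5%, 14.4 to 28.3%). These chromosomes cannot be ordered, since their intervals overlap almost wholly. The lowest shares were on chromosome 9 (6 of 120, 5%, 2.31 to 10.5%), chromosome 13 (7 of 117, 5.98%, 2.93 to 11.8%) and chromosome 11 (8 of 118, 6.78%, 3.48 to 12.8%). The upper bound of each of these lay below the lower bound of each of the 3 highest.

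The other chromosomes lay between these. Chromosomes 1 and 7 had 26 each, which was 13.4% of the windows of chromosome 1 and 17.4% of those of chromosome 7. Chromosome 3 had 22 (14.1%), and chromosomes 2, 5 and 15 had 16 each (8.99%, 10.7% and 16%). Chromosome 4 had 15 (9.87%), chromosome 10 had 14 (11.1%), chromosome 18 had 13 (14.9%) and chromosome 6 had 12 (8.22%). Chromosomes 16 and 17 had 10 each (10.5% and 10.9%), and chromosome 19 had 4 (6.90%). The intervals of these 13 chromosomes overlapped each other.

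**Figure D1:**
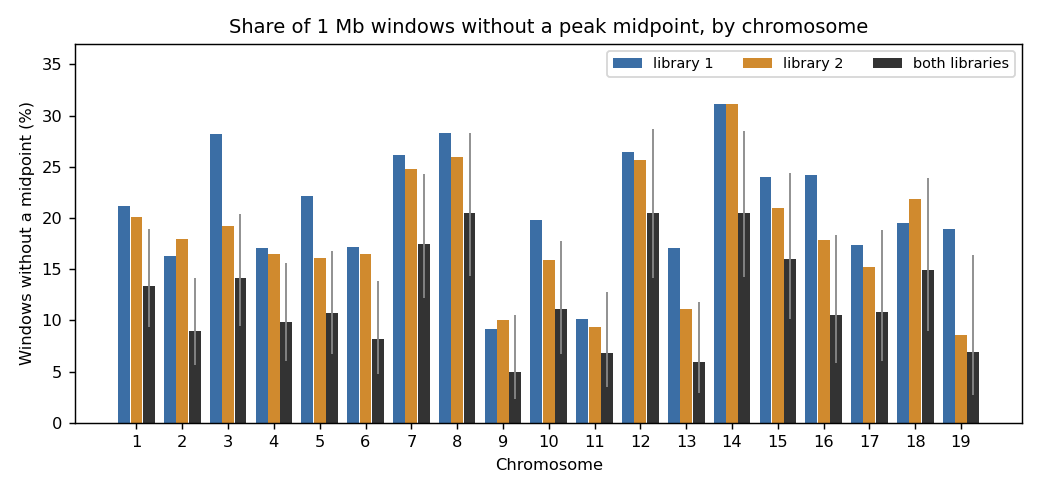
Share of 1 Mb windows without a peak midpoint on each autosome (percent), in library 1, in library 2 and in both at once; thin grey lines are 95% Wilson intervals for both at once. Chromosome 14 is highest in each library at 31.1%, and chromosomes 9 and 11 are low in both.

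The libraries, read singly, gave a like picture with some exceptions. On chromosome 14, 38 windows were empty in library 1 and 38 in library 2 (31.1% each), the highest share in both. Chromosome 9 had 11 in library 1 and 12 in library 2, which left 9.17% and 10%. The libraries were farthest apart on chromosome 19, with 11 windows empty in library 1 and 5 in library 2 (19.0% and 8.62%), and on chromosome 3, with 44 and 30 (28.2% and 19.2%).

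Denser chromosomes tended to have a lower share of empty windows, with a Spearman correlation of -0.42 between share and midpoints per window across the 19 autosomes. Both measures come from the same peaks, so this is a description. Single chromosomes departed from it. Chromosome 8 carried 9.83 midpoints per window, counting both libraries, which was above the autosomal mean of 9.53, and 26 of its windows were empty. Chromosome 13 carried fewer, at 6.86 per window, and had 7 empty windows. Chromosome 7 was denser still, at 11.6 per window, and yet 17.4% of its windows were empty. Chromosomes 12 and 14, with 7.02 and 5.65 per window, were both sparse and rich in empty windows, and chromosome 11 was the densest, at 16.6, and poor in them.

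If the peaks of each chromosome fell evenly and independently over its windows, a formula gives 1.47 empty windows over all autosomes, and no chromosome would reach 1, the highest being chromosome 3 at 0.434. The 296 observed stood above this on 19 of 19 chromosomes. Peaks of the libraries that overlap are not independent. With them joined into single loci, which left 19061 loci in the windows, the formula gave 4.34. Read singly, library 1 had 501 where 50.5 was computed and library 2 had 444 where 34.0 was. Peak density also varies by region, so the same formula was applied within blocks of 10 Mb. It then gave 50.04 empty windows, so the observed number was 5.92 times as high, and it was higher on each of the 19 chromosomes. Within blocks the peaks of both libraries were counted without joining, and loci within blocks were not computed. Both refinements were added after seeing the data, and all of these are computed descriptions with no test.

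Because the rule used both lists, the stricter reading is to choose windows in one library and look at the other. Of the 501 windows empty in library 1, 296 were empty in library 2 too (59.1%, 54.7 to 63.3%), against 18.5% of all windows in library 2. In the other direction, 296 of the 444 windows empty in library 2 were empty in library 1 (66.7%, 62.2 to 70.9%), against 20.8% of all windows. Windows empty in library 1 held a mean of 0.571 midpoints in library 2 and at most 5, where the mean over all windows was 5.01. Those empty in library 2 held 0.468 in library 1, also with at most 5, against 4.52. With 2 libraries there is no test over samples, and these are shares of windows.

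The share fell step by step with the number of peaks in the library that chose the windows. With 1 midpoint in library 1, 26.6% of windows (22.6 to 31.1%) were empty in library 2, with 2 midpoints 7.77% (5.19 to 11.5%), and with 5 or more 0.385% (3 of 780 windows). Chosen in library 2, the shares empty in library 1 were 36.7% (32.1 to 41.4%) at 1 midpoint, 12.8% (9.37 to 17.2%) at 2, and 0.117% (1 of 855) at 5 or more. A window rich in peaks in one library was thus seldom empty in the other.

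**Figure D2:**
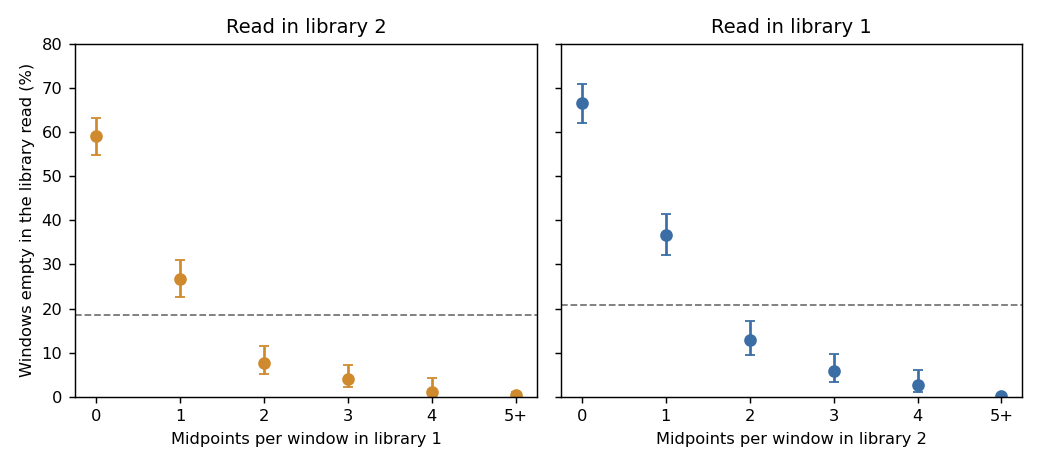
Share of windows empty in one library (percent, vertical axis) by the number of midpoints in the other library that chose them (horizontal axis), with 95% Wilson intervals; dashed lines give the share over all windows. The share falls from 59.1% at 0 midpoints to 0.385% at 5 or more in the left panel, and from 66.7% to 0.117% in the right panel.

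Peaks that filled the other library's empty windows were of ordinary score and somewhat narrow. In the windows empty in library 1, library 2 had 286 peaks with a median width of 264 bp and a median score of 67.3, against 295 bp and 66.8 over all its autosomal peaks. In those empty in library 2, library 1 had 208 peaks with medians of 246 bp and 69.1, against 322 bp and 66.0. The highest score among them was 140 in library 2 and 133 in library 1, and among all autosomal peaks it was 2322 and 2299. The highest of 286 or 208 peaks tends to be lower than that of a far longer list, so nothing is drawn from this gap. Libraries' scores are not on a known common scale, so each is set against its own list.

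The 296 empty windows formed 204 runs. Of these, 139 were single windows, 46 were pairs, 14 spanned 3 windows, 3 spanned 4, 1 spanned 5 and 1 spanned 6. Runs of at least 2 windows held 157 of the empty windows (53.0%), and 65 runs were that long. If the empty windows of each chromosome were in any order, a formula gives 33.8 runs of at least 2, 4.82 of at least 3 and 0.724 of at least 4. The observed numbers were 65, 19 and 5. Put as neighbours, 92 pairs of adjacent windows were both empty where 39.5 were computed, 2.33 times as many. This formula keeps the number of empty windows on each chromosome, and regional differences in peak density were not taken out of it.

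**Figure D3:**
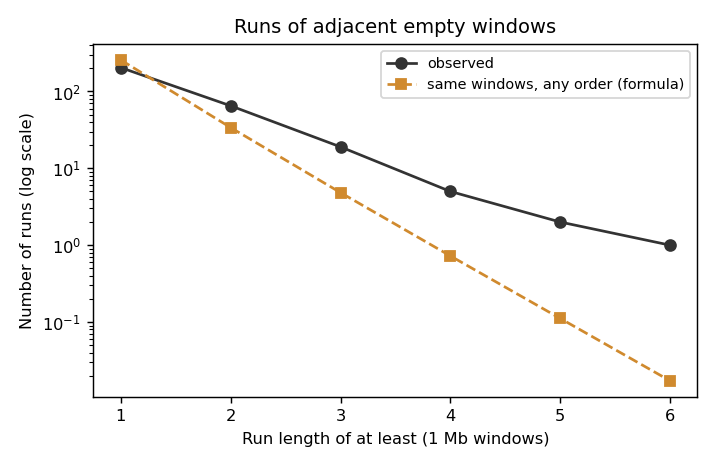
Number of runs (log axis) of at least the length on the horizontal axis, in 1 Mb windows, as observed and as computed for the same empty windows in any order on their chromosomes. The curves part with length: 19 against 4.82 runs at 3 or more windows and 5 against 0.724 at 4 or more.

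Long runs lay on 11 of the 19 autosomes. Chromosome 8 had 5 runs of 3 or more windows, chromosome 7 had 3, and chromosomes 12 and 14 had 2 each. The other 7 chromosomes with such runs, 1, 2, 3, 5, 15, 17 and 18, had 1 each. Chromosomes 9, 13 and 19 held single empty windows, with no adjacent pair. Chromosomes 12 and 14, which had nearly the same share of empty windows as chromosome 8, had 7 runs of at least 2 windows each, as did chromosome 8.

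**Figure D4:**
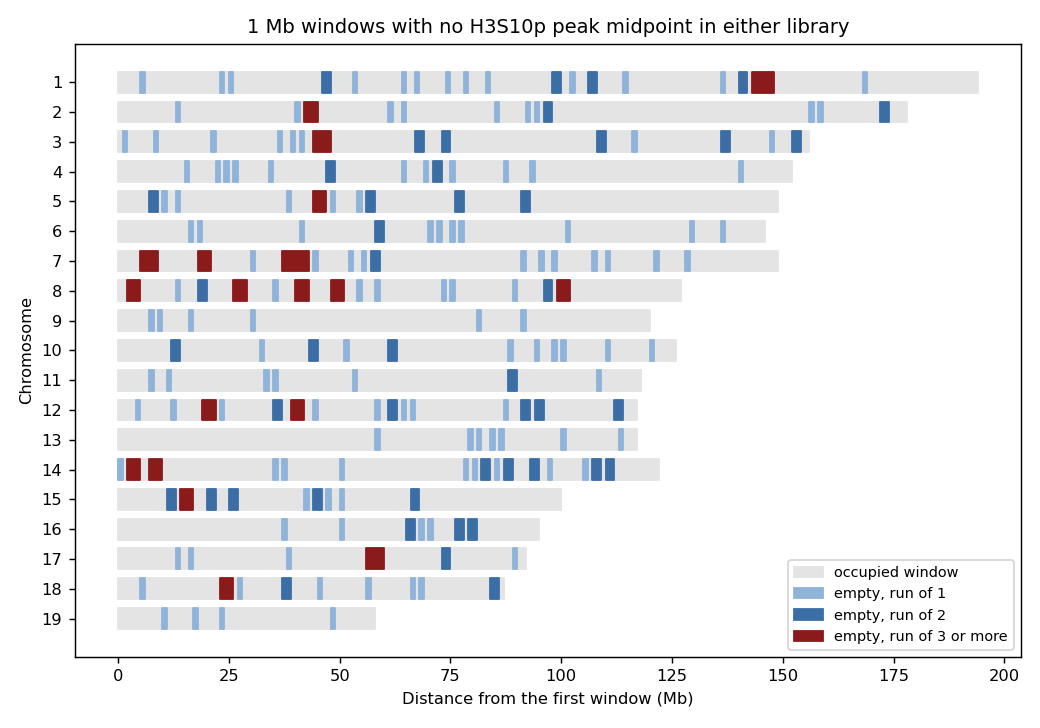
Position of the empty windows on each autosome, as distance from the first window in Mb; pale grey is occupied, and the shades of blue and the dark red mark empty windows in runs of 1, 2, and 3 or more. The 19 long runs are spread over 11 chromosomes, with 5 on chromosome 8 and 3 on chromosome 7.

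The longest run was on chromosome 7, from 40000001 to 46000000, 6 windows without a midpoint in either library. The nearest midpoints on its sides were at 39013004 and 46743039, 7.73 Mb apart, and this was also the widest space between neighbouring midpoints on any autosome when no window grid was used. In library 1 alone the space was 7.76 Mb and in library 2 alone 7.77 Mb, so the libraries placed its borders alike. The last peak before it, from 39012772 to 39013235, came from library 1 with a score of 70.1. The first one after it, from 46742895 to 46743183, came from library 2 with a score of 56.0. Neither overlapped a peak of the other list. The window before the run held 2 midpoints in library 1 and 0 in library 2, and the one before that 8 and 11, while the window after it held 2 in each.

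The second longest was on chromosome 1, from 146000001 to 151000000. It spanned 5 windows in each library alone as well, with midpoints 5.25 Mb apart at 145851363 and 151102875. Library 2 set both of these borders, and in library 1 the space was wider, 5.72 Mb. The windows on either side held 2 and 1 midpoints in library 1 and 3 and 1 in library 2. Farther to the left came 2 more empty windows, while the outer 3 of the 5 windows to the right held 4, 3 and 8 midpoints in library 1 and 4, 5 and 11 in library 2. The 5 windows on each side held a mean of 5.5 midpoints over both libraries.

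Next came 3 runs of 4 windows. That on chromosome 7 from 8000001 to 12000000 had midpoints 5.16 Mb apart, and its left border was a peak found in both libraries, from 7252143 to 7252569, with a score of 319 in library 1. It lay in a dense neighbourhood: the 5 windows on each side held a mean of 15 midpoints over both libraries. On chromosome 3, from 47000001 to 51000000, the space was 4.78 Mb, the left side was nearly bare, and the window on the right held 7 midpoints in library 1 and 4 in library 2. On chromosome 17, from 59000001 to 63000000, both borders were peaks found in both libraries. Its space was 4.74 Mb over both lists and in each library alone, and 31 and 34 midpoints lay in the third window to its left.

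**Figure D5:**
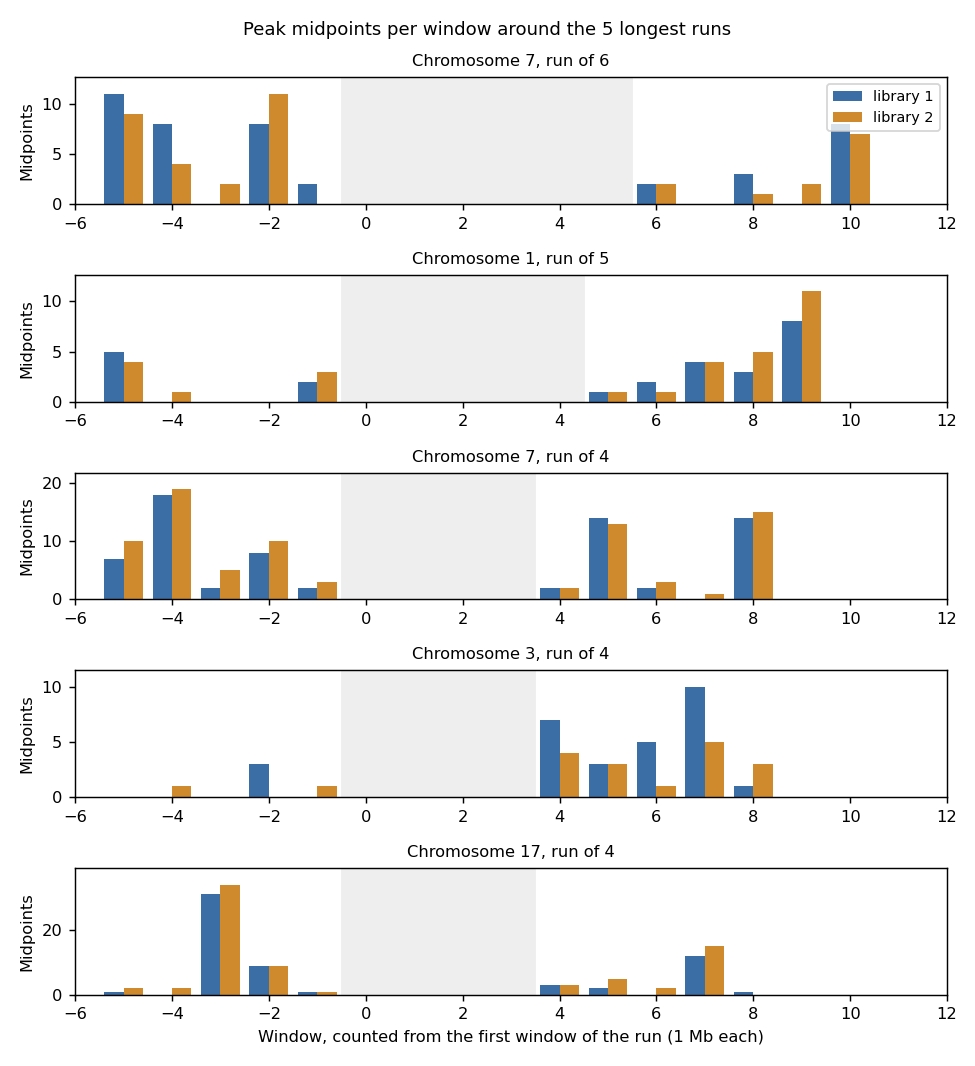
Peak midpoints per 1 Mb window in library 1 and library 2 around the 5 longest runs, by window number from the first window of the run; the grey band is the run. The run on chromosome 17 has windows of 31 and 34 midpoints nearby, while the left side of the run on chromosome 3 holds at most 3 per window in either library.

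Runs of 3 windows numbered 14, and 5 of them completed the 10 longest when ordered by the space between midpoints. The one on chromosome 7 from 21000001 to 24000000 (4.42 Mb) had 19 midpoints in library 1 and 21 in library 2 in the window before it, and the 10 windows around it held a mean of 29. On chromosome 8, the runs from 51000001 to 54000000 (4.07 Mb) and from 5000001 to 8000000 (4.05 Mb) differed in their surroundings, with means of 4.3 and 12.7 midpoints in the nearest windows. Those on chromosome 14 from 10000001 to 13000000 (4.02 Mb) and on chromosome 15 from 17000001 to 20000000 (3.96 Mb) lay in sparse regions, with means of 2.6 and 2.3. Long runs were thus found both beside dense windows and within thin regions.

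Single peaks broke up further long stretches. On chromosome 8 from 99000001 to 105000000, the stretch of 6 windows had 1 peak, from 101939306 to 101939799, called in library 2 with a score of 72.2. On chromosome 15 from 14000001 to 20000000, the stretch of 6 windows also had 1 peak, from 16333931 to 16334174, in library 2 with a score of 60.6. In library 1 both stretches were empty throughout. They would equal the longest run if these single peaks were left out. At the chromosome ends, 1 run was open: the first window of chromosome 14, from 3000001 to 4000000, was empty in both libraries. What lies before 3 Mb or beyond the last called base of a chromosome is outside the windows.

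The longest runs of each library alone showed how far they recur. Library 1 had 14 runs of at least 5 windows, 79 windows in all, of which 53 were empty in library 2, with 34 midpoints in the rest. For 2 of the 14, library 2 was empty throughout: those on chromosome 7 and chromosome 1 already described. Library 2 had 6 such runs with 32 windows, of which 24 were empty in library 1, and 1 of the 6, on chromosome 1, was empty throughout. The longest in library 1 was on chromosome 5, from 55000001 to 64000000, 9 windows without a midpoint, and here library 2 had 10 midpoints and was empty in 3 windows. In library 1 the space between its midpoints was 9.65 Mb, wider than any in library 2.

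Windows standing alone in one library recurred in the other at lower shares than windows in runs. Of the single empty windows of library 1, 47.6% (40.6 to 54.7%) were empty in library 2, and of those in runs of 2, 65.6% (56.8 to 73.4%). Beyond that the share did not go on rising, at 66.7% (55.4 to 76.3%) in runs of 3 and 66.1% (57.0 to 74.1%) in runs of 4 or more. Chosen in library 2, the corresponding shares empty in library 1 were 57.6% (50.3 to 64.7%), 73.7% (65.1 to 80.8%), 70.4% (59.7 to 79.2%) and 73.5% (62.0 to 82.6%). The intervals for runs of 2, 3 and 4 or more overlapped in both directions, and that for single windows of library 2 also overlapped those for its runs of 3 and of 4 or more. These differences were not tested.

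Without a grid, spaces of at least 1 Mb between neighbouring midpoints of the joined lists numbered 396 and covered 29.2% of the autosomal span between the first and last midpoints. Those of at least 2 Mb numbered 112 (13.4% of the span), those of at least 3 Mb 37 (5.80%) and those of at least 4 Mb 9 (1.84%). The median space was 23.5 kb in the joined lists, in which overlapping peaks of the libraries were counted separately. It was 66.8 kb in library 1 alone and 59.8 kb in library 2 alone. In library 1 alone 42.2% of the span lay in spaces of at least 1 Mb, and in library 2 alone 39.6%.

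The windows next to the empty ones held few peaks. The 362 occupied windows directly beside an empty window held a mean of 2.15 midpoints in library 1 and 2.41 in library 2, against 5.15 and 5.72 over all 2107 occupied windows. At a distance of 2 windows the means were 4.26 and 4.72, at 3 windows 5.07 and 5.57, and in the 471 windows at least 10 away 7.01 and 7.88. Single-midpoint windows made up 27.6% of the direct neighbours and 6.37% of those at least 10 away. Of all 2107 occupied windows, 362 adjoined an empty window, and of the 184 windows with 30 or more midpoints, 2 did. These were chromosome 9 from 20000001 to 21000000, with 22 midpoints in library 1 and 32 in library 2 beside the empty window at 19000001 to 20000000, and the window before the run on chromosome 7 at 21000001. That occupied neighbours have few peaks is a description of the same lists that chose the empty windows.

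Peaks at the borders of runs resembled other peaks in recurrence when counted as loci. The nearest peaks on the sides of the 204 runs numbered 386, with a median width of 283 bp and a median score of 68.9, against 307 bp and 66.3 for all 23058 autosomal peaks. These medians pool both libraries, whose scores are not on a known common scale, so likeness in strength was not tested. Of the 386 border peaks, 20.2% (16.5 to 24.5%) overlapped a peak of the other library, against 33.5% of all. Taking the nearest peak picks 1 of each overlapping pair, so loci were also compared. Of the 384 border loci, 76 held peaks of both libraries (19.8%, 16.1 to 24.1%), against 20.04% of all 19188 autosomal loci (19.5 to 20.6%). For runs of at least 3 windows it was 8 of 38 (21.1%, 11.1 to 36.3%). The share of recurring loci was also alike by distance from an empty window, at 18.7% (16.8 to 20.9%) directly beside one and 20.2% (19.2 to 21.3%) at least 10 windows away.

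The edges of the runs were often set at different places by the libraries. For each of 405 edges with a peak beyond it in both lists, the distance between the nearest midpoint of library 1 and that of library 2 was taken, and its median was 267 kb. It was at most 1 kb at 88 edges and at most 100 kb at 148. For the edges of runs of at least 3 windows the median was 181 kb over 37 edges. No such distance was computed away from the runs, so whether edges differ from other places was not tested.

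The share of empty windows was also read along the chromosomes. Mouse chromosomes have their centromere at the start, so the first windows flank the centromeric end and the last ones lie near the distal telomere. In the first 10 Mb, 24 of 190 windows were empty (12.6%, 8.64 to 18.1%), in the last 10 Mb 15 of 190 (7.89%, 4.84 to 12.6%), and in between 257 of 2023 (12.7%, 11.3 to 14.2%). The intervals of the ends overlapped that of the rest. With ends of 5 Mb the shares were equal, 9 of 95 windows (9.47%, 5.06 to 17.0%) at each end, so a difference between the ends was not seen at that width. With ends of 20 Mb the last part again had the lower share, 34 of 380 windows (8.95%, 6.47 to 12.2%). The first 20 Mb had 50 of 380 (13.2%, 10.1 to 16.9%), and these intervals overlapped. The last 10 Mb also held more midpoints per window, 13.4 against 9.33 in between. With each chromosome cut into 5 equal parts, the shares from the start on were 12.1%, 16.1%, 11.9%, 13.5% and 7.93%. The last part (38 of 479 windows, 5.83 to 10.7%) had an upper bound below the lower bound of the second part (78 of 483, 13.1 to 19.7%), and its interval overlapped those of the other parts.

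Near the centromeric end the empty windows lay on 10 chromosomes, in unequal numbers. Of the 24 in the first 10 Mb, chromosome 14 held 7, chromosome 7 held 4 and chromosome 8 held 3, while 9 chromosomes held none. Chromosomes 14, 7 and 8 also had high shares of empty windows over their whole length (20.5%, 17.4% and 20.5%). Chromosome 12, at 20.5% over its whole length, held 1 in its first 10 Mb. Whether the counts at this end exceed those elsewhere on the same chromosomes was not tested. The 7 of chromosome 14 came from the open first window, the run from 5000001 to 8000000, and the run from 10000001 on. In the last 10 Mb, 10 chromosomes had an empty window, with at most 3 on any, on chromosome 3.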

How the data were processed

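The authors deposited 1 peak list per ChIP library. Bowtie and the build mm9 are named per the submitters' processing notes, and peaks were called with MACS, per the file headers. The caller's version and threshold, and whether it had a control, are not given in the sources used. The authors deposited a score with every peak, taken here as the caller's strength value; no scale is named, and the lowest is 50.01 in both lists. Peak numbers run unbroken in each list. Positions are counted from 1. Windows, runs, borders and neighbours were computed from peak midpoints. Peaks overlapping by at least 1 bp were called shared, and overlapping peaks were joined into loci. The number of empty windows for even placement was n(1 - 1/n) to the power of the number of midpoints, for n windows. Runs for any order of empty windows followed from counting formulas, with no resampling. Shares have 95% Wilson intervals. No significance test was made: the lists that chose the windows also measure them, and there are 2 libraries in 1 group. The functions were tested on simulated peaks. The members, the naming rule and the alternatives were chosen with earlier results of these data known. Named were the 10 longest runs (ties by the space between midpoints), the 3 chromosomes with the highest and the 3 with the lowest share, runs open at an end, and single peaks whose removal joins a stretch as long as the longest run; other windows and runs were named after their values were seen. The RNA table was not used here, as it has no positions. Python 3.11.15, NumPy 2.4.6, pandas 2.3.3, SciPy 1.17.1 and matplotlib 3.10.9 were used.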

Additional observations from a re-analysis of the deposited data

How the results depend on the processing

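Read depth, mappable sequence and an input library were not analysed here, and they limit what an empty window means. The number of empty windows followed how many peaks were counted. With peaks scoring at least 75 there were 689 empty windows, 163 runs of at least 2 and a longest run of 10. Counting peaks of both libraries by 1 bp overlap gave 1001, 227 and 16, and by overlap of at least 50% of both widths 1154, 259 and 19. These settings have fewer peaks by construction. Leaving out either library gave 444 to 501 empty windows, 101 to 109 runs of at least 2 and longest runs of 7 to 9, with library 2 alone at the lower values and library 1 alone at the higher ones. With windows of 0.5 Mb 26.3% were empty, and with windows of 2 Mb 4.01%. With library 2 cut to the length of library 1, 64.3% of windows empty in library 1 were empty in library 2. Border peaks found in both libraries were 15.3% by overlap of at least 50% of both widths. Of 43 values under alternatives, 27 stayed within 1.5 times or the main interval, among them 309 empty windows with the grid shifted by 0.5 Mb, 296 by any overlap and 386 at a score of at least 60. Empty windows outnumbered those of even placement on 19 of 19 chromosomes with either library left out, with loci and within 10 Mb blocks. No paired analysis was possible because the ChIP libraries form a single group.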

Other observations

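Chromosome X was not among the autosomes described, and was cut in the same way for comparison. It had 70 of 163 windows without a midpoint in either library (42.9%, 95% Wilson interval 35.6 to 50.6%), with a lower bound above the upper bound of every autosome. Its windows held a mean of 1.55 midpoints over both libraries and a median of 1, against 9.53 and 5 for autosomal windows. The number of empty windows for even placement was not computed for chromosome X. How far its share follows from its few peaks was thus not tested.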
